A study of Mus musculus with 3 samples.

Results

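Lhx6-GFP+ and Lhx6-GFP- cells that were sorted from differentiating mouse embryonic stem (ES) cells are compared here across all genes of an expression array. Both populations came from J14 cells, a mouse ES cell line of 129S4/SvJae origin in which GFP is expressed from an Lhx6 bacterial artificial chromosome transgene, so that a cell fluoresces where the regulatory DNA carried by the transgene is active. By their labels both populations also carried a viral 692-mCherry enhancer reporter. ES cells were aggregated in medium with 100 ng/ml Dkk-1, an inhibitor of Wnt signaling, received 6 nM of the Smoothened agonist SAG on D3 and again on D6, and were dissociated on D12 from 1920 embryoid body aggregates of 20 plates. The Rock inhibitor Y-27632 was present during dissociation. Dead cells were removed with Sytox Blue, and FACS collected the fluorescent cells (ES Lhx6-GFP+) apart from the others (ES Lhx6-GFP-). Each population is 1 sort of 1 line on 1 array, 2 of the 3 arrays of the series, so there was no spread between samples, no test was made and every difference is one between these 2 RNA samples. The third array, of GFP+ cells from embryos, was not used.

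The medial ganglionic eminence (MGE) is a ventral forebrain region whose radial glial progenitors divide at the ventricle under Sonic hedgehog signaling. Their daughters leave the cell cycle, switch Notch signaling and proneural genes off, turn on Lhx6 and migrate away as young GABAergic neurons, many of them future cortical interneurons that contain somatostatin or parvalbumin. Lhx6 is first expressed as these cells become postmitotic. The GFP- cells of an aggregate are everything else that the culture contains, and in bulk RNA fewer cells of a type and less RNA per cell cannot be told apart.

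Values are scaled intensities: the background-subtracted intensity of a probe after both arrays were brought to the same 75th percentile over all 55681 mouse probes. The arrays carry 106 E1A and ERCC control probes, whose target sequences come from outside the mouse. Their 95th percentile was a scaled intensity of 400.1 on the GFP+ array and 196 on the GFP- array, and their median was 74.2 and 10.9, so dim probes read higher on the GFP+ array. A gene was given a value where at least 1 of its probes exceeded that percentile on its own array, on at least 1 of the 2 arrays. This left 11378 autosomal genes. Because the limit was higher on the GFP+ array, a dim gene entered more easily when it was brighter in GFP- cells. A probe under its limit on the GFP+ array entered only by exceeding that of the GFP- array, which favors lower values among such probes. The median log2 difference over the 11378 genes, ES Lhx6-GFP+ minus ES Lhx6-GFP-, was -0.0046. Repeat spots of a probe differed with an SD of 0.139 on the GFP+ array and 0.141 on the GFP- array (log2 scale, probes with at least 5 spots), and 2 SDs of a difference from this source came to 1.32-fold. A gene is called higher or lower here from 2-fold. Below, values are given in the order GFP+ against GFP-. A reading under 400.1 in GFP+ cells or under 196 in GFP- cells lies inside the control range, and a fold against such a reading depends on where the background lies and is smaller against the limit itself.

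Of the 11378 genes, 694 were at least 2-fold higher in the GFP+ population, which is 6.1% of them, and 1058 were at least 2-fold lower, which is 9.3%. The counts given below for lists of genes are to be read beside these shares. At 4-fold the numbers were 132 (1.16%) and 309 (2.72%). The 2 directions differed in kind. Among the genes at least 4-fold higher, 90 of 132 lay within 2-fold of the control limit on the GFP+ array, and 105 were inside the control range on the GFP- array. Among those at least 4-fold lower, 55 of 309 were that close to the limit on the GFP- array, while 247 were inside the control range on the GFP+ array, so that for most of them the GFP+ value cannot be told from that of a control probe and the fold depends on where the background lies. With the limit set at the 99th percentile of the control probes, 35 genes were at least 4-fold higher and 201 at least 4-fold lower out of 7473. Genes 16 or more times brighter than the control limit, 2142 in number, were at least 2-fold higher in 2.57% and at least 2-fold lower in 8.17% of cases.

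**Figure D1:**
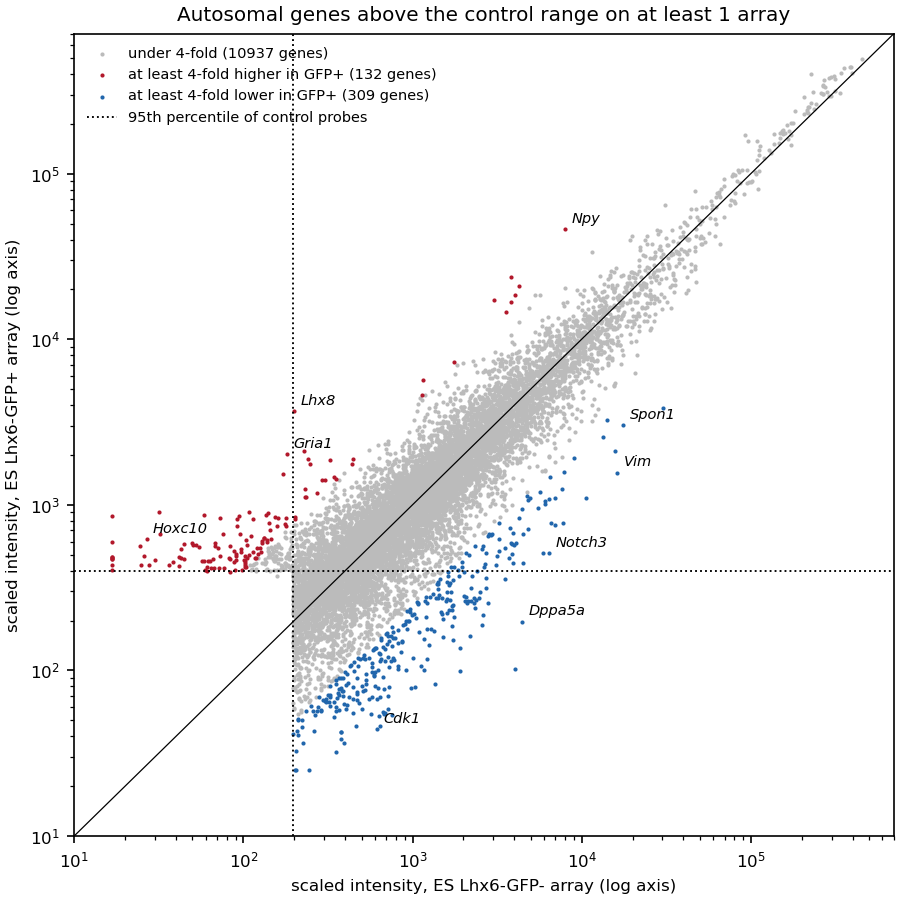
Scaled intensity of each of the 11378 genes on the ES Lhx6-GFP- array (x axis, log) and on the ES Lhx6-GFP+ array (y axis, log), with the 132 genes at least 4-fold higher in GFP+ cells in red, the 309 at least 4-fold lower in blue and the control limits of 196 and 400.1 as dotted lines. Most red points lie in the band just above the GFP+ limit, whereas the blue points run along the whole lower edge of the cloud up to bright genes.

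Lhx6, the gene whose regulatory DNA drives GFP, has 3 probes on the array. Probe 2 read 17972 on the GFP+ array and 1293 on the GFP- array, and probe 3 read 6182 and 375, so that these probes were 13.9-fold and 16.5-fold brighter in the GFP+ cells. The first probe read 118959 and 114986. It is 1 of 109 probes above 100000 on both arrays, of which 97 stayed within the repeat-spot range of 1.32-fold and 0 reached 2-fold.

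Of 39 transcription factors of the MGE and subpallium with a value, 17 were at least 2-fold higher in GFP+ cells and 6 at least 2-fold lower, which is 43.6% and 15.4% beside 6.1% and 9.3% of all genes. Their median log2 difference was 0.66. Lhx8, a LIM-homeodomain factor of the MGE and of cholinergic and pallidal neurons, gave 3689 against 200.4, the GFP- value just above the control limit. Maf, a factor of migrating MGE interneurons, was 3.57-fold higher at 1196 against 335. Bcl11a, a zinc-finger factor of young neurons, read 2758 against 954. Mef2c, an activity-related factor that also marks future parvalbumin cells, was 569 in GFP+ cells and inside the control range in GFP- cells. Satb1, which acts downstream of Lhx6 in somatostatin cells, read 7372 against 3761, 1.96-fold higher and so just short of the 2-fold mark. Of Nr2f1 and Nr2f2, orphan receptors of caudal and dorsal MGE, Nr2f2 differed by less than the repeat-spot spread at 5068 against 4173, and the 2 probes of Nr2f1 lay on either side of 0, with a mean of 11067 against 10437. The other direction was taken by 6 factors, several of them expressed in progenitors. Among them, Nkx6-2, a factor of the dorsal MGE ventricular zone, was 9.07-fold lower at 254 against 2307, Etv1 4.69-fold lower and Lmo1 3.9-fold lower, in each case with the GFP+ value inside the control range. Otx2, a factor of ventral progenitors and of more posterior brain, read 1169 against 2519, and Prox1, typical of interneurons of caudal origin, 1895 against 3554.

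**Figure D2:**
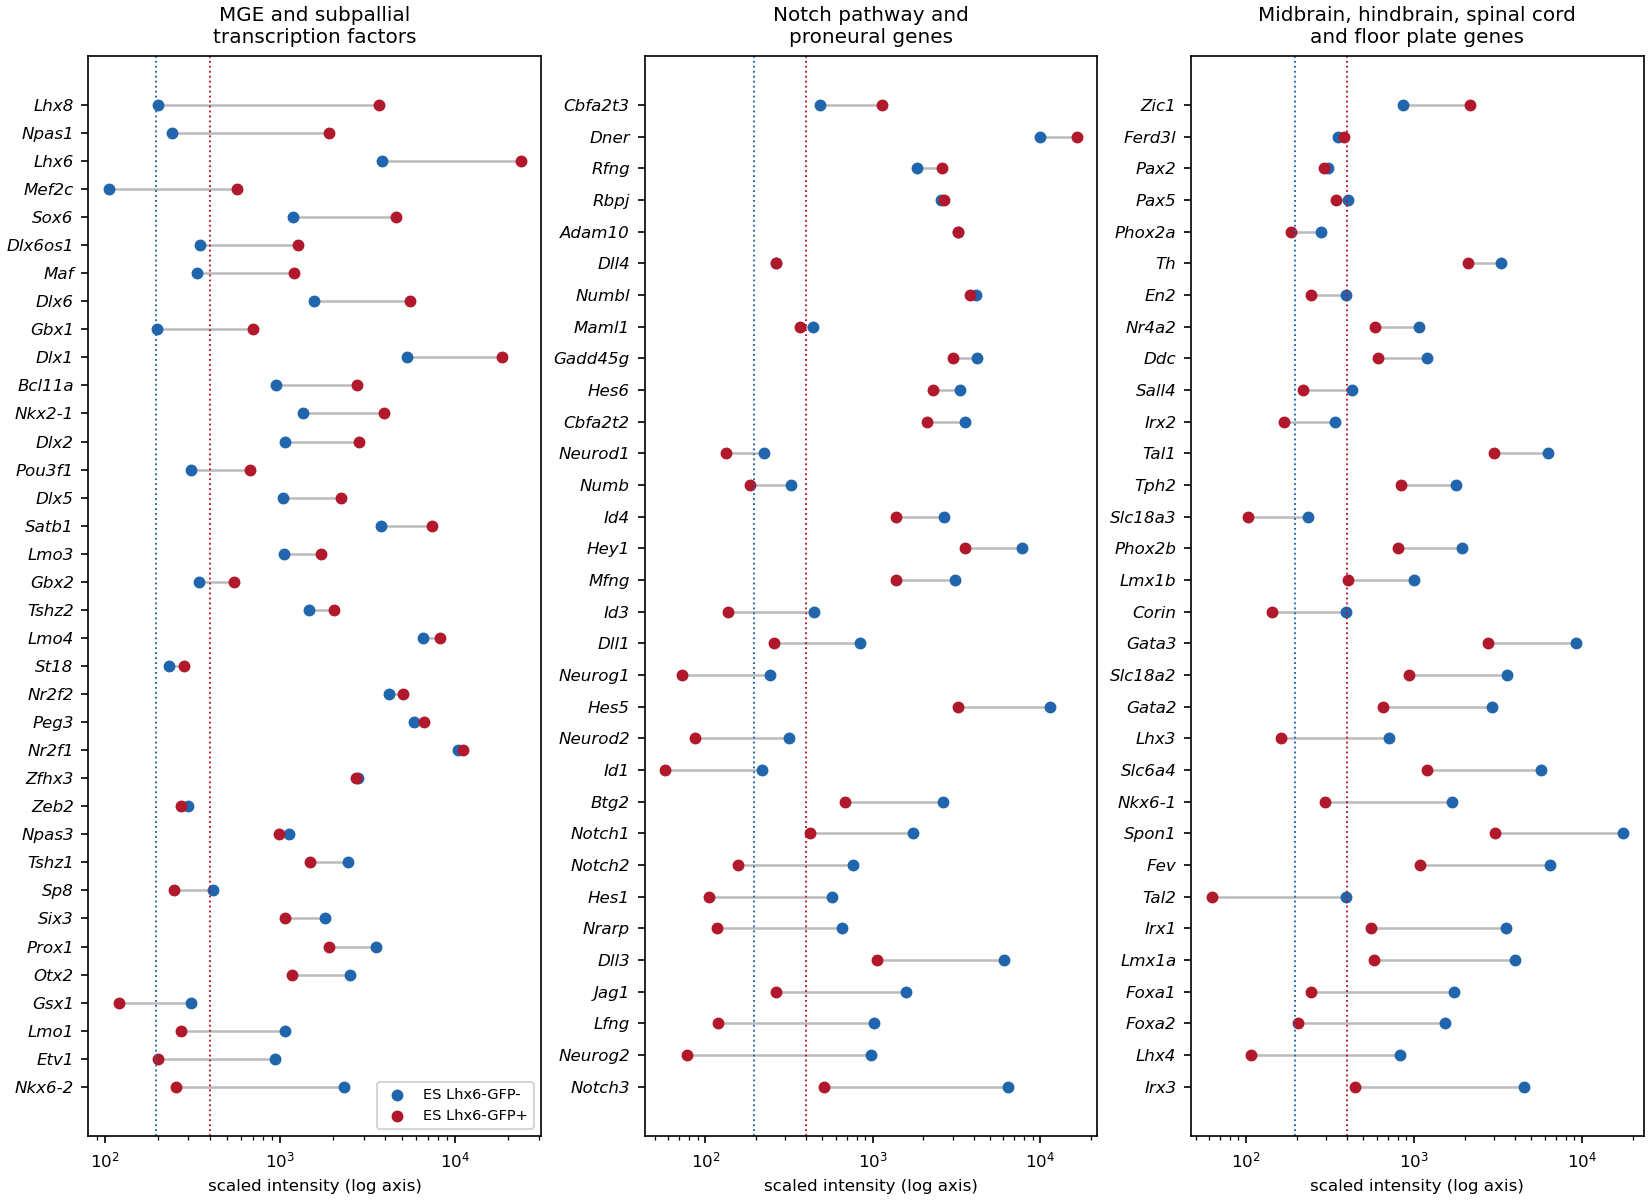
Scaled intensity (x axis, log) of genes with a value in 3 lists, with red points for ES Lhx6-GFP+ and blue points for ES Lhx6-GFP- cells, sorted by difference, and the control limits of both arrays as dotted lines in the same colors. The upper part of the MGE list has red to the right of blue, whereas nearly all genes of the Notch and posterior lists have red to the left.

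Genes of the GABAergic phenotype were higher in part. Of 12 with a value, 5 were at least 2-fold higher and 1 lower, and 10 of the 12 lay above 0, with a median of 0.78. The vesicular GABA transporter Slc32a1 read 8169 against 3336 and the chloride exporter Slc12a5 (KCC2), whose appearance makes GABA inhibitory, 4617 against 2252. Its counterpart, the chloride importer Slc12a2 (NKCC1), read 972 against 1422, a log2 difference of -0.55. The metabotropic receptor subunit Gabbr1 was at 4384 against 2347.

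Among neuropeptide and granule genes, 21 of 35 had a value and only 3 of these were at least 2-fold higher. Those 3 were Npy, Sst and Tac1. Tac1, which encodes the precursor of substance P, read 894 against 141, with the GFP- value inside the control range. Penk, the enkephalin precursor of striatal and other projection neurons, went the other way at 5216 against 15623, and so did Chgb, a granule protein, at 6244 against 20785. Chga, Scg3, Cck, Cort and Gal were within 2-fold. Vip, Pdyn, Crh, Pthlh and the hypothalamic peptides Pomc, Oxt, Avp and Ghrh exceeded the control limit on neither array.

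Interneuron subtype and migration genes were split as well, with 4 of 22 at least 2-fold higher, 3 at least 2-fold lower and a median of 0.20 that was below 0 with the 50th percentile scaling. Nrp1 and Nrp2 encode the semaphorin receptors that steer MGE cells around the striatum, and Nrp1 was 5.36-fold higher at 1246 against 233 while Nrp2 read 6476 against 3805. Nxph1, a neurexin ligand of inhibitory neurons, was 2.89-fold higher at 7569 against 2623. In contrast Cxcr4, the chemokine receptor that guides interneurons in the cortex, was 3.29-fold lower in GFP+ cells at 3795 against 12488. The retinoid-binding protein gene Crabp1 was 1.66-fold lower at 14293 against 23785, Reln read 505 against 657, and the ionotropic serotonin receptor Htr3a, a marker of caudal interneurons, was inside the control range in GFP+ cells. Pvalb, Calb1, Calb2, Nos1 and Kcnc2, most of them markers of mature interneurons, exceeded the limit on neither array. The paper lists Calb1 with markers of immature interneurons that were higher in the GFP+ cells. Its lack of a value here depends on the control limit used.

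Pan-neuronal genes were expressed in both populations. Of 50 genes for cytoskeletal and RNA-binding proteins of neurons, all 50 were above the control range on both arrays and 41 were above 0. Only 5 were at least 2-fold higher (10%) and 3 at least 2-fold lower (6%), with a median of 0.50. The shares of all genes were 6.1% and 9.3%. Tubb3, the neuronal beta-tubulin, read 41939.9 against 24474, the microtubule protein Mapt 15943 against 7899 and the RNA-binding protein Elavl3 3784 against 1761. Rbfox3, which encodes the NeuN antigen, read 2041 against 1182. Nhlh2 and Insm1, factors of newly born neurons, were 4.34-fold and 3.04-fold lower, and the splicing factor gene Rbfox1 read 1059 against 2289. The probes of Nhlh1 lay on either side of 0, at 341 against 511 and, for a very bright one, 135315 against 105257. Nefl and Nefm, neurofilament subunits of long-axon neurons, read 4212 against 6741 and 921 against 1308.

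Genes of synapses, ion channels and receptors were on the higher side in GFP+ cells as well. Of 39 synaptic genes 11 were at least 2-fold higher and 1, Sncg, at least 2-fold lower, with a median of 0.60 and 34 of 39 above 0. The synaptobrevin gene Vamp2 was 3.19-fold higher at 3260.1 against 1023, the vesicle protein Sv2a 2.88-fold at 3404 against 1183 and the active zone protein Rims1 2.87-fold at 1015 against 354. Snap25, whose probe was very bright on both arrays, read 164945 against 148143. Of 33 voltage-gated channel genes 7 were higher and 2 lower (median 0.48). Kcnip2, a potassium channel subunit, read 689 against 191, the L-type calcium channel Cacna1c 408 against 118, and the sodium channel Scn1a 653 against 289. Cacna2d1, a calcium channel auxiliary subunit, was 4.22-fold lower at 1131 against 4772. Receptor subunits had 8 of 21 at least 2-fold higher and 0 at least 2-fold lower (median 0.72). Gria1, an AMPA receptor subunit, had the largest difference among them at 2019 against 180.3, which is 11.2-fold against the measured GFP- value and 10.3-fold against the control limit. Gria2 read 5191 against 2077. The 2 probes of the NMDA receptor subunit Grin2b disagreed, at 1760 against 268 and at 2632 against 2856. In this list 18 of 39 genes, with Grin1 and Gabra2 among them, exceeded the limit on neither array.

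Axon guidance genes differed gene by gene, with 8 of 51 at least 2-fold higher (15.7%), 5 at least 2-fold lower (9.8%) and a median of 0.06. Of all genes 6.1% were higher and 9.3% lower, so the lower share was near that of all genes. Of the Unc5 receptors, which mediate repulsion by netrin, Unc5d was 3.92-fold higher at 1338 against 342, Unc5c 2.72-fold higher at 669.8 against 246, and Unc5a 2.25-fold higher, whereas Unc5b and the attractive netrin receptor Dcc were at 325 against 338 and 3396 against 4636. Robo3, a divergent member of the Slit receptor family, read 521 against 142. Of the ligands that were at least 2-fold lower, netrin itself, Ntn1, read 226 against 969, its GFP+ value inside the control range and the difference 2.42-fold against the limit. Slit1 was 3.01-fold lower at 509 against 1535 and Slit2 2.15-fold lower at 1438 against 3098. Efnb2, an ephrin, was 3.39-fold higher at 2318 against 684, and the 2 probes of Epha5 differed, at 1053 against 271 and, for a very bright one, 257553 against 220194. Cadherins and their partners had 3 of 25 at least 2-fold higher (12%), Pcdh7, Pcdh17 and Ctnnd2, and 4 lower (16%). Among the lower ones Celsr1, a planar polarity cadherin of neuroepithelium, read 254 against 1223 and the giant cadherin Fat1 2209 against 6979.

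Radial glial genes had the second lowest median of the 39 lists. Of 34 with a value, 24 were at least 2-fold lower in GFP+ cells, 15 of them at least 4-fold, 0 were at least 2-fold higher, and the median was -1.83. The intermediate filament gene Vim was 10.4-fold lower at 1565 against 16249, both values well outside the control range. Fabp7, a fatty acid-binding protein of radial glia, read 2571 against 13316, and Zfp36l1, an RNA decay factor, 773 against 6547. The glutamate transporter Slc1a3 was 162 in GFP+ cells, inside the control range, against 2201, which is 13.6-fold by the measured values and 5.5-fold against the control limit. Sox9, Rfx4 and Ednrb were also inside the control range in GFP+ cells, at 66.9 against 556, 142 against 1249 and 265 against 2364. Some stem cell genes that young neurons keep were closer, with Sox2 at 1439 against 2848, Msi1 at 6935 against 11176 and the adhesion gene Cdh2 at 6356 against 5380.2.

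Notch signaling keeps progenitors undifferentiated: ligands on newborn neurons activate receptors on neighboring progenitors, and these turn on repressors of the Hes and Hey families. Of 33 genes of this pathway and of proneural factors 19 were at least 2-fold lower and 1 at least 2-fold higher (median -1.72). The GFP+ value of 16 of the 33 was inside the control range, where the entry rule favors lower values. Among receptors Notch3 was 12.6-fold lower at 509.6 against 6433, Notch1 4.13-fold lower at 424 against 1749.8, and Notch2 was inside the control range in GFP+ cells at 157 against 763. Of the ligands, Dll3 read 1059 against 6062, Dll1 257 against 844 and Jag1 263 against 1585, while Dll4 was at 263 against 266. Dner, a neuronal surface protein related to Delta, was at 16521 against 10030.5. The modulators Lfng and Mfng, glycosyltransferases that act on the receptors, read 119 against 1009.8 and 1382 against 3078, and the third of that family, Rfng, 2575 against 1849. Of the target genes Hey1 kept a high reading in GFP+ cells at 3570.1 against 7761, a 2.17-fold difference, and Nrarp was inside the control range in GFP+ cells at 117 against 651. The proneural factor Neurog2 read 78.0 against 981 and the Id genes Id1 and Id3 57.5 against 218 and 136 against 446. The DNA-binding partner of all Notch receptors, Rbpj, showed no difference beyond repeat-spot spread at 2663 against 2556. The gene at least 2-fold higher was Cbfa2t3, a transcriptional co-repressor, at 1139.8 against 483.

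Mitotic genes were lower in GFP+ cells nearly throughout, and replication genes in part. Of 52 genes of mitosis and the spindle 43 were at least 2-fold lower, 28 of them at least 4-fold, and 0 at least 2-fold higher, with a median of -2.02. Of 44 genes of DNA replication 16 were at least 2-fold lower, 7 of them at least 4-fold, and 0 higher, with a median of -0.63. The difference between these lists was not tested. In GFP+ cells 44 of the 52 mitotic genes were inside the control range, so their folds are set by the background of that array. Under the entry rule a probe inside that range has a value only if it exceeded the limit in GFP- cells. That these genes exceeded it there is therefore no separate result. The other 8 were above the limit on both arrays. Cdk1, the kinase that starts mitosis, was 44.2 against 617 over 2 probes, 1 of them not well above background in GFP+ cells. Pttg1, which encodes securin, read 255 against 2777, the mitotic kinase Melk 58.3 against 712, and Ccnb1, the cyclin of Cdk1, 256 against 2089. For the same 4 genes the folds against the GFP+ control limit were 1.54-fold, 6.94-fold, 1.78-fold and 5.22-fold. Among replication genes the helicase subunit Mcm3 was 217 against 2623, Mcm2 232 against 1639, Mcm6 662 against 2940.3, and the ribonucleotide reductase subunit Rrm2 209.7 against 1751. In contrast Pcna read 1419 against 2057, Mcm7 2825 against 3564, and Lig1 and Dnmt1, which also serve repair and DNA methylation upkeep, 15105 against 12979 and 1668 against 1425. Of 25 genes of cell cycle exit and G1 control 11 were at least 2-fold lower and 0 higher (median -0.81), and these included both the G1 cyclins Ccnd1 at 958 against 5525 and Ccnd2 at 1587 against 7883 and the inhibitor Cdkn1c at 7087 against 17090.2. The inhibitor Cdkn1b read 7127 against 10856 and Cdkn2d 2065 against 2316.

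The promoters of the mitotic genes have sequence words in common. Many genes of late cell cycle phases carry a cell cycle genes homology region (CHR, TTTGAA), bound by the DREAM and B-Myb complexes, together with CCAAT boxes bound by NF-Y. RefSeq promoters (GRCm38.p6, 250 bases before to 50 after the start) were used, the first listed for a gene. Those of chromosomes 18, X and Y and mitochondrial ones were left out. With this 45 of the 52 mitotic genes had a promoter. Both motifs, searched on either strand, were present in 27 of these 45 (60%), compared with 5.03% of 9081 genes with a value here. Of all 25748 promoters kept, 7.03% held both. TTTGAA alone was in 64.4% of the mitotic promoters and 11.6% of those of the 9081 genes. In 37 replication genes both motifs were in 13.5%, while E2F words (TTTCCCGC, TTTGGCGC, TTTCGCGC or TTTGCCGC) were in 24.3%, against 3.98% of the 9081. E2F words were also in 8.89% of the mitotic promoters. The CCAAT box, with or without TTTGAA, was in 80% of mitotic, 67.6% of replication, 63.3% of radial glial and 51.7% of MGE and subpallial promoters. It was in 26.9% of synaptic promoters and in 38.9% of those of the 9081 genes. A match is only a description of the letters. The promoters below are those of the mitotic gene with the largest difference that holds both motifs (Cdk1), of one with the second largest difference that holds neither (Melk), of one that holds both although its reading hardly differed between the arrays (Hmmr, 12789 against 14058), and of the replication gene with the largest difference (Mcm3). Capitals mark TTTGAA and the CCAAT box on either strand, or in Mcm3 the E2F words. Cdk1 lies at chr10:69352863-69353162 (strand -), Melk at chr4:44300667-44300966 (strand +), Hmmr at chr11:40733388-40733687 (strand -) and Mcm3 at chr1:20820263-20820562 (strand -).
Cdk1: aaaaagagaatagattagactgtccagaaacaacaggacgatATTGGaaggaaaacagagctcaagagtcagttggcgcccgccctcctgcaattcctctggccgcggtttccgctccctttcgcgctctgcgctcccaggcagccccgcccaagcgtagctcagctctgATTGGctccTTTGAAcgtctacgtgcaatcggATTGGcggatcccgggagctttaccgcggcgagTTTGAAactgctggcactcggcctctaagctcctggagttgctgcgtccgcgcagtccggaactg
Melk: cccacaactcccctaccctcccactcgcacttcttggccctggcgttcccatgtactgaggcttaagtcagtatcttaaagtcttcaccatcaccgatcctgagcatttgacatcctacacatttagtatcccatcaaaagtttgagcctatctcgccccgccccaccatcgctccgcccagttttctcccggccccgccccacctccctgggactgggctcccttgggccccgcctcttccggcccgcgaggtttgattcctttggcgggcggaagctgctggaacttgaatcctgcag
Hmmr: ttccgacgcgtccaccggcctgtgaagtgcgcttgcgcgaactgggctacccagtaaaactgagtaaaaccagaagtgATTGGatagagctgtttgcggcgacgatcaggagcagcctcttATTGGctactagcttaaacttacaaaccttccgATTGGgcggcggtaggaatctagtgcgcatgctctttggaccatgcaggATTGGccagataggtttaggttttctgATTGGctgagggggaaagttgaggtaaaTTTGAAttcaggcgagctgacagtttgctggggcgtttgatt
Mcm3: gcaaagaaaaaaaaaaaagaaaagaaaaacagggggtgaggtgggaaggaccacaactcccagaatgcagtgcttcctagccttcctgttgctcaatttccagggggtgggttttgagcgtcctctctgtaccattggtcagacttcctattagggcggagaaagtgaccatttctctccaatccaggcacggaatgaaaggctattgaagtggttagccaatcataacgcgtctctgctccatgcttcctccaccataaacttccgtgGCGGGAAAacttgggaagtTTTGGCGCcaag

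Glial lineage genes were mostly lower in GFP+ cells. Of 24 astroglial genes with a value 18 were at least 2-fold lower and 0 higher (median -1.60). Sparcl1, a matricellular protein, read 773 against 7748, the metallothionein Mt2 1101 against 10598, the glycolytic enzyme Aldoc 715 against 4808, and the lipoprotein gene Apoe 1105 against 4923. The 2 probes of the water channel Aqp4 disagreed, at 84.0 against 1053 and 499.5 against 504. Gfap, Gja1 and Gjb6, markers of mature astrocytes, exceeded the limit on neither array. Of 15 oligodendrocyte lineage genes 8 were at least 2-fold lower and 2 higher (median -1.01). Bcas1, a gene of premyelinating oligodendrocytes, read 526 against 3230.4, whereas Mbp, the myelin basic protein, was at 761 against 1194 over 3 probes that disagreed, from -2.19 to 0.28 on the log2 scale. The 2 higher genes were Mog, at 1766 against 438, and Lhfpl3, at 693 against 282. Mog is a late myelin gene, and Mag, its partner on mature myelin, exceeded the limit on neither array.

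Genes of more posterior brain were mostly lower in GFP+ cells. Of 32 genes of midbrain, hindbrain, spinal cord and floor plate 21 were at least 2-fold lower in GFP+ cells, 13 of them at least 4-fold, and 1, Zic1, at least 2-fold higher (median -1.38). Serotonergic neuron genes were among them: the transcription factor Fev (Pet1) at 1085 against 6443, the serotonin transporter Slc6a4 at 1189 against 5681, the vesicular monoamine transporter Slc18a2 at 936 against 3564, the brain tryptophan hydroxylase Tph2 at 835 against 1766, and the factors Gata2 and Gata3 at 657 against 2901 and 2751 against 9187, all above the control range on both arrays. The floor plate and ventral midbrain factors Foxa1 and Foxa2 were inside the control range in GFP+ cells at 244 against 1723 and 205 against 1519. Lmx1a, a factor of the midbrain floor plate and of the roof plate, read 575 against 3974, and Spon1, a matrix protein secreted by the floor plate, 3027 against 17593. Irx3, absent from the telencephalon, was at 443 against 4512, the motor neuron and V2 factor Lhx4 at 106.5 against 822, and Nkx6-1 at 297 against 1686. The catecholamine enzyme Th differed less, at 2089.8 against 3288. En1, Pax3, Pax7, Dbh, Slc6a3 and Pitx3 exceeded the limit on neither array. For 15 of the 32 genes the GFP+ value was inside the control range, where the entry rule favors lower values. Of 39 Hox genes 11 had a value, 6 of these at least 2-fold lower and 2 higher (median -1.16). The lower ones were anterior genes that mark the hindbrain, Hoxa2 at 219.9 against 852, Hoxa3 at 333 against 1403, Hoxa4, Hoxb2, Hoxb3 and Hoxb4, whereas the higher ones, Hoxc10 at 619.6 against 26.8 and Hoxc5 at 855 against 406, were single dim probes. Without any filter on dim probes the Hox median was above 0.

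In the forebrain, genes of pallial progenitors and the glutamatergic lineage had 8 of 19 at least 2-fold lower and 1 higher (median -0.85). The GFP+ value of 12 of the 19 was inside the control range, where the entry rule favors lower values. Of the glutamatergic genes in this list, the vesicular glutamate transporter Slc17a8 read 264 against 2036 and Slc17a6 532 against 848. Whether these readings came from pallial cells was not tested. Emx1, Emx2, Fezf2 and Slc17a7 exceeded the limit on neither array. The higher gene was Bcl11b (Ctip2), at 836 against 160.3 over 2 probes, which besides deep-layer cortical neurons also marks striatal neurons and interneurons. Striatal (LGE) lineage genes had 3 of 22 higher and 6 lower (median -0.28), with Foxp2 at 1293 against 542, Pde10a at 3908 against 1945, Meis2 at 3361 against 9222 and Zfp503 at 918 against 2518. Of 19 hypothalamic and retinal genes 10 were at least 2-fold lower and 1, Rax, higher (median -1.20). In this list too the GFP+ value was mostly inside the control range, for 11 of the 19. Hmx3 and Irx5 were inside the control range in GFP+ cells, at 73.9 against 469.9 and 110 against 577, and Lhx1 read 3883 against 5909.

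**Figure D3:**
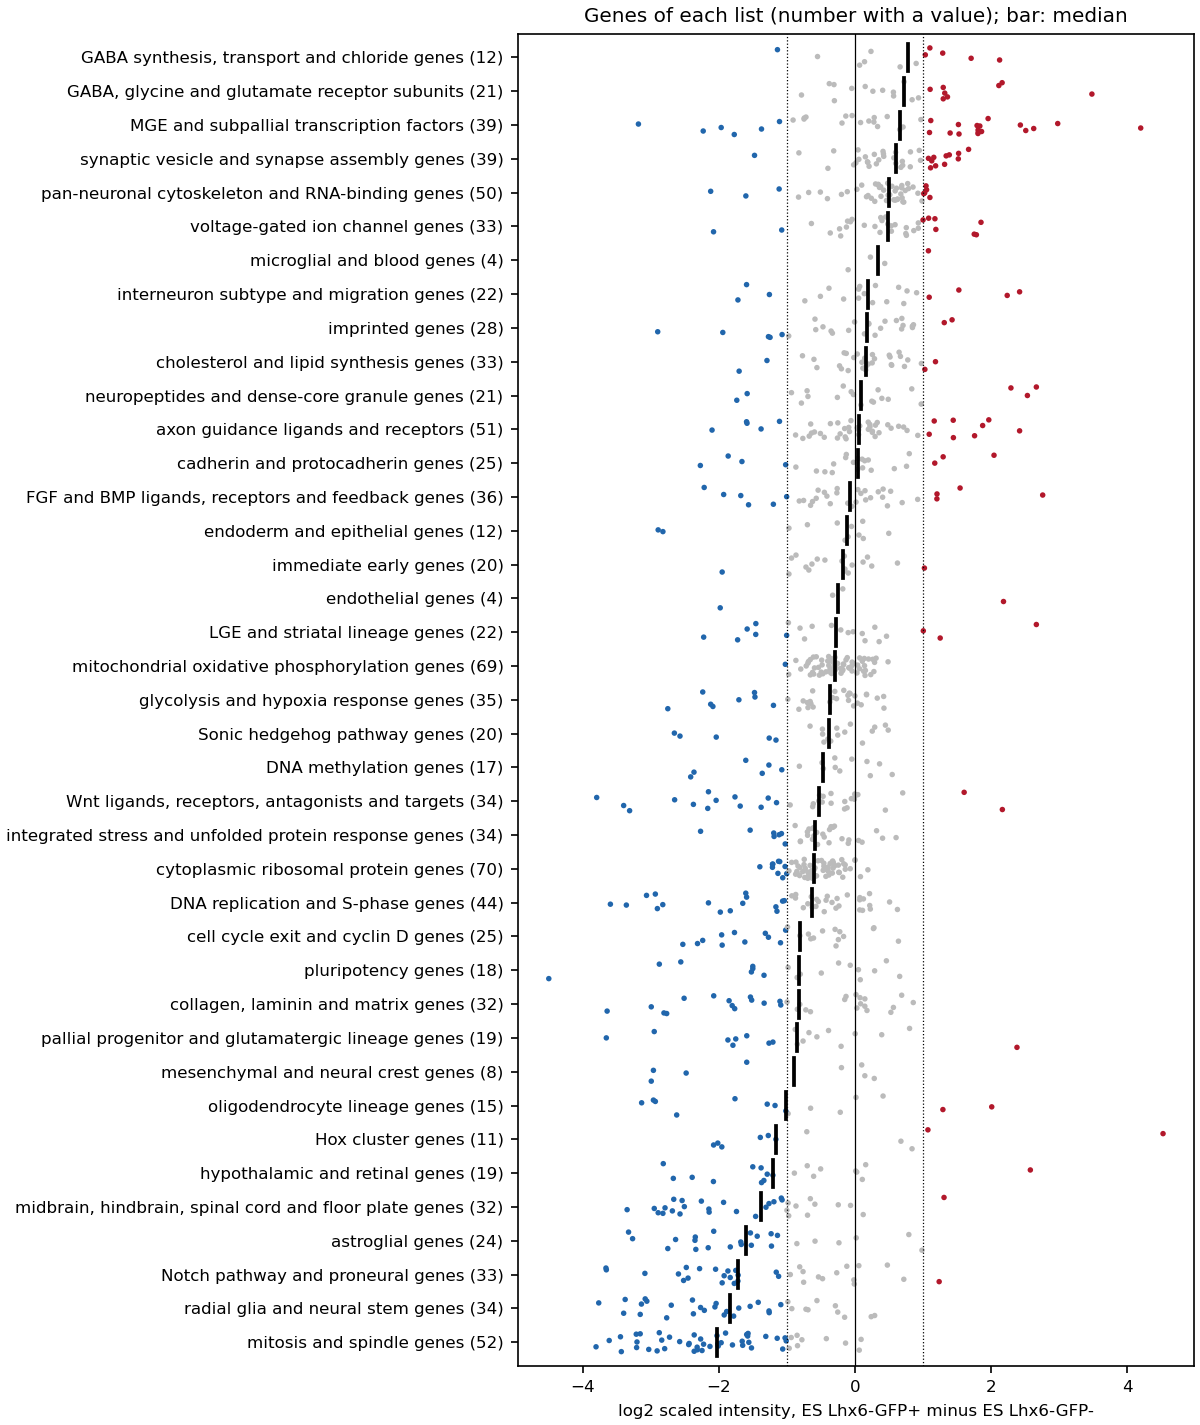
Log2 difference in scaled intensity, ES Lhx6-GFP+ minus ES Lhx6-GFP-, of every gene with a value in the 39 lists (x axis), with red points at least 2-fold higher, blue points at least 2-fold lower, gray points between, black bars for medians and dotted lines at 2-fold. No list median reaches 1, whereas 8 medians lie at or below -1, from the oligodendrocyte list down to the mitotic list.

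SAG acts on the Sonic hedgehog receptor complex, so the readouts of that pathway were looked at by role. Shh itself read 3413 against 2786, a difference inside the repeat-spot spread. Of the 2 probes of its transducer Smo, one read 112 against 303, within the control range in GFP+ cells, and the other, very bright, 147583 against 135417. The transcriptional effectors were lower, with Gli1, a direct target, at 259.9 against 1067, and Gli2 at 121 against 717, while Gli3 was at 368 against 438. Hhip, a target that binds the ligand, was at 100.0 against 629, and the co-receptor Gas1 at 225 against 538. For Gli1, Gli2, Gli3 and Hhip the GFP+ value was inside the control range. So was the mean of Gas1, but its 2 probes differed, at 59.5 against 210 and at 849 against 1375, the latter above the range on both arrays. Over the whole pathway, 5 of 20 genes were at least 2-fold lower and 0 higher (median -0.38), and Ptch1 exceeded the limit on neither array. The GFP+ value of 11 of the 20 was inside the control range.

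Wnt genes had 13 of 34 at least 2-fold lower, 8 of them at least 4-fold, and 2 higher (median -0.52). In GFP+ cells 22 of the 34 were inside the control range, so the entry rule favors lower values among these 22. Frizzled receptors differed among themselves, with Fzd9 at 106.5 against 1123, Fzd2 at 118 against 526 and Fzd7 at 177 against 569, all inside the control range in GFP+ cells, whereas Fzd3, needed for axon growth, read 9978 against 10799. The nuclear effector Tcf7l1 was 46.4 in GFP+ cells against 643, Tcf7l2 was at 383 against 1299.8, and the antagonists Sfrp2 and Dkk3 were at 424 against 2657 and 355 against 3519. The 2 higher genes were Wnt7a at 797 against 262 and the antagonist Frzb at 475 against 106. Of 36 FGF and BMP genes 4 were higher (11.1%) and 6 lower (16.7%), beside 6.1% and 9.3% of all genes (median -0.07). Among them were the receptor Fgfr3, which marks ventricular cells, at 1711 against 5468, and Bmp4 at 681 against 2011. The BMP antagonist Fstl1 read 797 against 3034, and the intracellular factor Fgf14, a regulator of sodium channels, 1239 against 537. The ligand Fgf8 read 2492 against 2123.

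Matrix genes had 14 of 32 at least 2-fold lower and 0 higher (median -0.83). Col2a1, Dcn and Col18a1 were inside the control range in GFP+ cells, at 54.7 against 682, 78.8 against 627 and 104 against 729, and Sparc read 5456 against 15806.

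All 70 cytoplasmic ribosomal protein genes were above the control range on both arrays, 66 were below 0 and 10 at least 2-fold lower, with a median of -0.59 and a range from -1.40 to 0.19. Several of these genes have near-identical pseudogenes that a probe may not tell apart. For 69 genes of oxidative phosphorylation the median was -0.29 and 1 was at least 2-fold lower. Of 35 glycolysis and hypoxia genes 8 were at least 2-fold lower, with the glucose transporter Slc2a1 at 947 against 4458, the oxygen sensor Egln3 at 647 against 2809 and the hexokinase Hk2 inside the control range in GFP+ cells, whereas the core enzymes Pgam1 and Pkm read 34291 against 35994 and 6587 against 6962. The endoplasmic reticulum chaperone Hspa5 was 2.16-fold lower at 19032 against 41173, and of the serine synthesis genes Psat1 was 2.91-fold lower, while Phgdh read 198 against 955, inside the control range in GFP+ cells and 2.39-fold lower against the limit. Of 34 stress response genes 7 were at least 2-fold lower and 0 higher (median -0.58). Cholesterol genes had a median of 0.16, with Idi1 at 961 against 423, Cyp51 at 542 against 266 and the efflux pump Abca1 at 205 against 667. Immediate early genes, which dissociation of tissue can induce, had a median of -0.17, with Fos at 2465 against 2535 and Egr1 at 6514 against 3206.

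Of 28 imprinted genes with a value 2 were at least 2-fold higher and 5 lower, which is 7.14% and 17.9% beside 6.1% and 9.3% of all genes (median 0.17). Igf2, a fetal growth factor, was 7.45-fold lower at 2116 against 15769, the growth inhibitors Grb10 and Cdkn1c were 3.84-fold and 2.41-fold lower, and Dlk1 read 4848 against 10174. The paternally expressed Usp29 was 2.69-fold higher at 8327 against 3092, and the neuronal genes Ndn and Magel2 read 8619.9 against 4795 and 19336 against 12006. DNA methylation genes had 6 of 17 at least 2-fold lower and 0 higher, with Dnmt3a, the enzyme of young neurons, at 3409.9 against 2330.1, Dnmt3b, that of early embryonic cells, at 168 against 431 (1.08-fold against the control limit), and Uhrf1, the partner of Dnmt1 in dividing cells, at 1010.2 against 3069.

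At least 1 marker of ES cells, Dppa5a, was far above the control range in GFP- cells. Of 27 pluripotency genes on the array, 9 had no value. Of the other 18, 7 were at least 2-fold lower in GFP+ cells and 0 higher (median -0.82). In GFP+ cells 13 of the 18 were inside the control range, so these entered by exceeding the limit in GFP- cells. Dppa5a, an RNA-binding protein of pluripotent cells, read 197 against 4453, 22.6-fold by the measured values and 11.1-fold against the control limit. Pou5f1 (Oct4) was at 204 against 576, Tfcp2l1 at 91.8 against 673 and Utf1 at 97.3 against 573, each inside the control range in GFP+ cells. The GFP- values of these genes were below the 99th percentile of the control probes on that array, 698. The probe of Nanog read 245158 against 236325, among the very bright probes described with Lhx6, which also include those of Oprm1 and Itgam.

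Other cell types that the aggregates could hold left little signal. Of 16 endothelial genes 4 had a value, of which Egfl7 was at least 2-fold lower and Esam at least 2-fold higher, and Pecam1, Cdh5, Tek and Cldn5 exceeded the limit on neither array. For the 4 the summed scaled intensity was 1983 on the GFP+ and 3240 on the GFP- array. Of 17 microglial and blood genes on the array 4 had a value, 1 of them, Klf1, at least 2-fold higher, and the defining genes Aif1, Cx3cr1, Ptprc and Spi1 were not among them. The summed intensity was 210048 and 179712, nearly all of it from the very bright Itgam probe. Of 23 mesenchymal and neural crest genes 8 had a value, 4 of them at least 2-fold lower, with sums of 3108 and 5352, and of 22 endodermal and epithelial genes 12 had one, 2 of them (Foxa1 and Foxa2) at least 2-fold lower, with sums of 6457 and 9644. The part of such cells in the differences above was not tested.

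Ranked by size, the 20 largest differences toward GFP+ cells ran from 12.9-fold to 51.3-fold. Only 1 of the 20, Lhx8, was brighter than 1000 on the GFP+ array, and 19 were inside the control range on the GFP- array. Their median was a scaled intensity of 488 on the GFP+ array, close to the control limit, 6 were olfactory receptor genes, and for 9 the GFP- value was not well above background and was set to a floor of 16.7, so that the size depends on that floor. The first of them, Fbxw26, an F-box protein gene, read 857 on the GFP+ array, which is 51.3-fold the floor but 4.37-fold the control limit. Olfr670, an olfactory receptor gene, gave 35.7-fold and 3.04-fold in the same way, and Vdr, the vitamin D receptor, 24.2-fold and 2.06-fold. The others were Cd52, Pcdh12, Gm14137, Olfr66, Olfr1406, Olfr1123, Olfr161, Hoxc10, Olfr1360, Pldi, Gm5134, Gip, 1700125H20Rik, Dgkg, Gpr182 and Lrriq4. Hence the order by size names mainly dim probes on the GFP+ side.

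The 20 largest toward GFP- cells ran from 11.6-fold to 40.1-fold, and 11 of them exceeded 1000 on the GFP- array. Gm4710, a predicted gene, read 101 against 4058, a 40.1-fold difference and 10.1-fold against the control limit. Alpl, the tissue-nonspecific alkaline phosphatase long used to stain pluripotent and neuroepithelial cells, read 99.3 against 1897. Iqgap3, a scaffold protein of dividing cells, read 83.3 against 1356, the matrix protein Fbln2 137 against 1916, and Rbpms2, an RNA-binding protein, 188 against 2586. Crym, a thyroid hormone-binding protein, was at 54.1 against 751, and Fndc5, the precursor of irisin, at 79.8 against 1036. Ccdc3, Cp (ceruloplasmin, a copper-binding oxidase) and Gpx8, a peroxidase of the endoplasmic reticulum, were 11.9-fold to 12.5-fold lower, and Arhgef39 was 11.6-fold lower. The others, Dppa5a, Cdk1, Tcf7l1, Slc1a3, Notch3, Neurog2, Col2a1, Melk and Mcm3, are described above with their lists. Among these 20 Notch3 alone was above the control range on both arrays, at 509.6 against 6433.

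With the limit at the 99th percentile of the control probes the order on the GFP+ side differed in part. Fbxw26, Gm14137, Lhx8 and Gpr182 came first and are also among the 20 genes above, and the rest were others. Of the 20 largest by that limit, 12 exceeded 1000 on the GFP+ array and none was an olfactory receptor gene. Besides these and Gria1, Npas1, Lhx6, Npy, Nrp1, Bcl11b and Tac1, they included Neto1, an auxiliary subunit of kainate receptors, at 2099 against 227, Lgi1, a secreted synaptic protein, at 1773 against 248, the RNA-binding protein gene Ralyl at 1874 against 324, and Jph4, a junctophilin of neurons that couples surface and intracellular calcium channels, at 5698 against 1155. The kinase Wnk4 read 852 against 94.7, the fatty acid receptor Ffar2 1537 against 171, the sulfotransferase Chst4 901 against 108 and the prolactin family member Prl3a1 865 against 136, each with the GFP- value inside the control range. On the GFP- side the list gained Fgfbp3, an FGF-binding protein, at 511 against 5884, Zcchc24 at 153 against 1731, and Cbs, an enzyme of homocysteine metabolism, at 116 against 1221, besides Pttg1 and Fzd9.

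**Figure D4:**
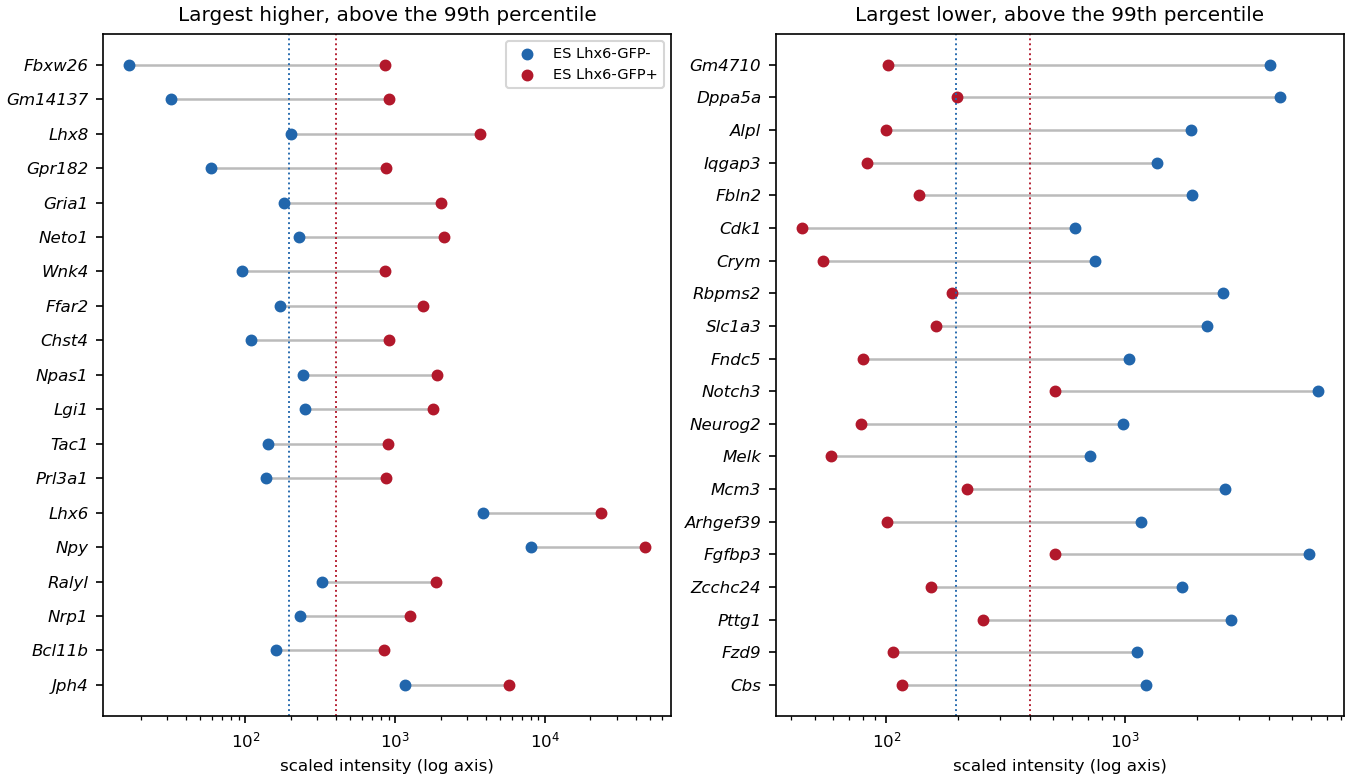
Scaled intensity (x axis, log) of 19 higher and 20 lower genes among those with the largest differences above the 99th percentile of the control probes, with red points for ES Lhx6-GFP+ and blue points for ES Lhx6-GFP- cells and dotted lines for the 95th percentile of the controls of each array. On the left 10 of 19 blue points lie inside the GFP- control range, and on the right 18 of 20 red points lie inside the GFP+ control range.

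At the edge of the limit lay genes whose place was decided by little. Kcna5, at 353 against 196, Plcg2, at 41.5 against 196, and Casp6, at 159 against 196, just entered through the GFP- array. Jakmip3, at 400.0 on the GFP+ array and 83.2 on the GFP- array, 4930407I10Rik, at 400.04 and 89.3, and Trh, at 114 and 195.9, just did not.

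**Figure D5:**
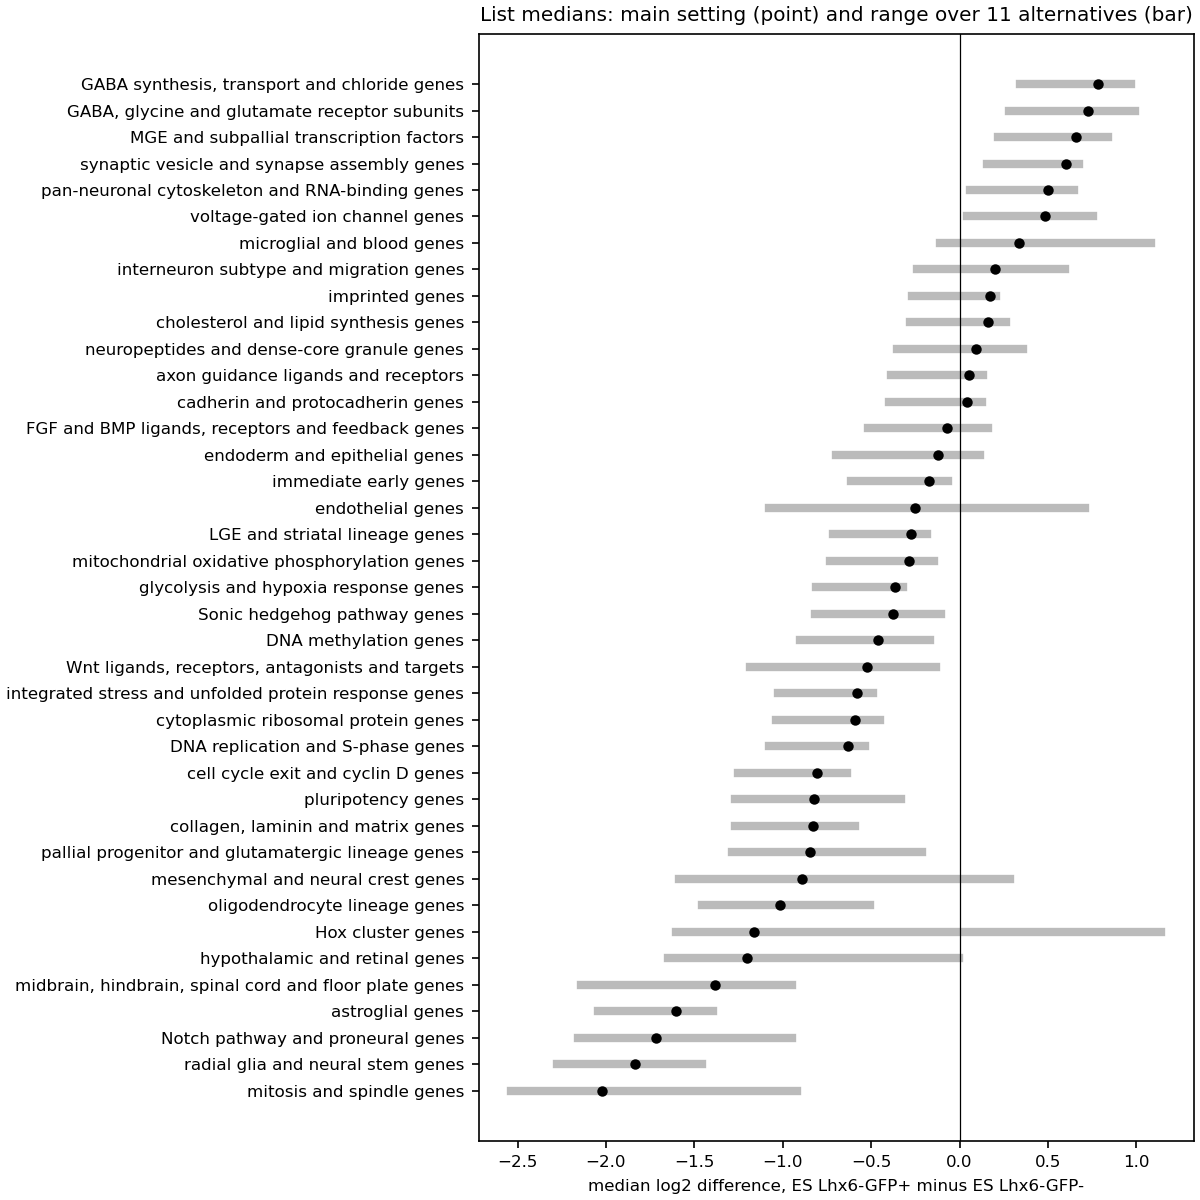
Median log2 difference of each of the 39 lists, ES Lhx6-GFP+ minus ES Lhx6-GFP-, in the main setting (points) and its lowest to highest value over 11 other ways of scaling, background treatment and filtering (bars). For 27 lists the bar stays on the side of the point, with all progenitor, cell cycle and glial lists below 0, and for 12 lists it crosses 0.

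The 12 lists whose median changed sign under at least 1 of these alternatives were those of neuropeptides, interneuron subtypes and migration, axon guidance, cadherins, FGF and BMP signaling, cholesterol synthesis, imprinted genes and Hox genes, and the endothelial, microglial and blood, mesenchymal and endodermal lists. Their medians in the main setting are therefore no direction for the list as a whole.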

How the data were processed

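RNA of both sorted ES populations was labeled with Cy3 and hybridized to 1-color Agilent mouse arrays, 1 array a population. The labels and the study's methods name different amplification kits and array formats, and the files hold 62976 spots, which is the 8×60K format. The authors deposited, per the file headers, the scanner intensities of Feature Extraction 10.7.3.1, of which the background-subtracted intensity was used. The authors also deposited log2 values, whose method is not given in the sources used here. They had column medians of 7.69 (GFP+) and 7.68 (GFP-), were not centered per gene, and served as an alternative. By these values 603 genes were at least 2-fold higher and 1086 lower. With quantile-normalized median signals of the same arrays the counts were similar, at 574 and 1039.

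Outlier spots were dropped, log2 intensities were shifted to a common 75th percentile, and repeat spots were averaged. A probe without the software's well-above-background call was raised to the lowest called value of its array where it read below that value. The size of its difference then depends on that floor. A gene was the mean over its probes above the control limit (95th percentile of E1A and ERCC probes) on at least 1 array. Gene names are RefSeq symbols, found through the transcript accession that the array gives for a probe. Of 55681 probes 26582 had such a match, and the others entered no gene. Genes of chromosomes X and Y (391 with a value), and mitochondrial ones, were left out. With 1 array a group there is no test, and precision is limited by this number. Calls were made from 2-fold. The code was tested on simulated data. R 4.3.3, limma 3.58.1 and Python 3.11.15 were used.

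The genes named are the 20 largest differences in each direction, the 4 largest differences and 2 brightest genes of each of 39 lists, and Lhx6. A few genes that this rule or the lists hold are not reported here and not drawn by name, but stay in the counts and medians. Other genes, the ranking at the 99th percentile and the promoter motifs were chosen after values were seen. The comparison and the lists were chosen with earlier results of these data known. Of 11378 genes, 2902 had several probes, and in 64.6% of these all probes lay on the same side of 0. Among the 310 called genes with several probes the probes lay on the same side in 302.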

Additional observations from a re-analysis of the deposited data

Results flagged for a closer look

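The array also carries 15617 probes named by a genome position (NCBI37, mm9) and not by a gene, which entered no comparison above. Of these 5946 exceeded the control limit on at least 1 ES array. At least 4-fold brighter on the GFP+ array were 80 of them (1.35%, beside 1.16% of the genes), and 14 of these also passed the 99th percentile of the control probes. At least 4-fold brighter on the GFP- array were 55 (0.92%, beside 2.72% of the genes), of which 30 passed it. Those named next were taken from the probes past this stricter limit that differed at least 2-fold the same way in the deposited values, chromosome 18 left out. Several of the largest differences among them toward GFP- cells came from probes of overlapping intervals on chromosome 8 between positions 67542714 and 67561694, where readings were 417 against 6224, 189 against 2095, 126 against 1224 and 454 against 4116 (GFP+ against GFP-). Toward GFP+ cells the largest among them was a probe for chromosome 15, positions 3946037 to 3972747, at 1091 against 87.1. No genome of that build was used here, so these intervals are given without a gene.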

How the results depend on the processing

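With 1 array a group no replicate could be left out. No paired analysis was possible because each group has 1 array and no test was made. Normexp on mean signals was not run, since the files used hold no mean signal column. Normexp on median signals and a limit common to both arrays were chosen after seeing the data. Shares are of the genes with a value. Scaling to the 50th percentile moved the median of all genes to -0.45, with 2.65% at least 2-fold higher (301 genes) and 20.0% lower (2278), and 0.659% and 4.66% at 4-fold. Without a filter on dim probes, which moved that median to 0.26, 23.7% were at least 2-fold higher (4253), 8.17% at least 4-fold higher (1464) and 1.79% at least 4-fold lower. The 99th percentile limit gave 364 higher and 682 lower of 7473 at 2-fold, and 0.468% higher at 4-fold. With the control limit as floor 5.98% were at least 2-fold lower (592 of 9893), 0.414% at least 4-fold higher and 1.08% at least 4-fold lower. At least 4-fold higher were 0.554% with quantile-normalized median signals, 0.65% with normexp (1.42% lower) and 0.615% in the deposited values. The common limit gave 712 higher and 871 lower at 2-fold. Higher genes made up 39.6% of the 2-fold and 29.9% of the 4-fold calls, but 11.7% and 12.4% with the 50th percentile, 78.6% and 82.1% without a filter, and 54.2% of the 2-fold calls with the floor. Of the 4-fold calls they were 19.1% with quantile normalization, 18.9% with quantile-normalized median signals, 20% in the deposited values and 14.8% with the 99th percentile. The other 29 shares stayed within 1.5 times.

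The 8 list medians below -1 stayed below 0 with the 11 alternatives except that of the Hox genes, which was 1.14 without a filter. That of the hypothalamic and retinal genes, -1.20 in the main setting, was -0.0058 without a filter and -0.50 with the control limit as floor. With that floor the mitotic median came from -2.02 to -0.92, over 36 genes, and the Notch median from -1.72 to -0.95. The highest medians over the alternatives were -0.95 for the posterior list and -0.51 for the oligodendrocyte list. In all 27 of 39 list medians kept their sign. Of 189 named genes at 2-fold or more, 43 came below 2-fold in at least 1 alternative, in 68 of 2006 values, 24 of these with the control limit as floor. Gas1 was 0.045 higher (log2) without a filter, and Fgfr1 0.21 higher by its brightest probe. The causes were not tested.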
